A study of Drosophila melanogaster with 6 samples.

Results

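The genes described here are 43 core genes of the Notch, Wnt, Hedgehog, BMP, EGFR and Hippo pathways of Drosophila melanogaster and were listed by name, with earlier results of these data known. They were 7 Notch, 9 Wnt, 4 Hedgehog, 9 BMP, 8 EGFR and 6 Hippo genes among 16196 annotated genes, of which 11599 were measured. A measured gene averaged 1 CPM or more, CPM being counts per 1000000 counts of a library. All 43 were measured. RNA came from whole 3rd instar larvae on the 4th day after egg laying, with 1 library for each of 6 genotypes. Control larvae carried the driver Tubulin-Gal4, which is active in most tissues, over an S-T chromosome. Each of the other 5 genotypes combined Tubulin-Gal4 with a UAS transgene for 1 gene of the newt Notophthalmus viridescens (C1, C2, C3, C4 or C5), placed by phiC31 integrase with the vector pUAST-attB. The newt transcripts were not analysed here. With 1 library per genotype, every difference is between libraries and not between conditions. Intervals cover counting error only, and the control library enters all 5 comparisons.

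These pathways carry signals between cells through secreted or membrane-bound ligands, receptors at the cell surface and a small number of nuclear effectors. In the 3rd instar they set the growth and patterning of the imaginal discs, the epithelial sacs that form the adult body, and they also act in the brain, gut and trachea. Many are built to damp their own output, through inhibitors that the pathway itself induces.

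The libraries held 75131812 to 86975388 deposited counts, and the 43 genes together took between 0.249% of them (C2) and 0.399% (C3). The smallest count of any of the 43 genes in any library was 509. The libraries differed in tissue RNA. The summed level of 14 male germline markers was 1250 CPM in the control and 2650 in C4, but between 8.75 and 14.6 in C1, C2, C3 and C5, where 2 or 3 of the 14 were at 0. The summed level of 9 muscle markers was 21804 CPM in C2, 1509 in C3 and between 4847 and 7210 elsewhere. In whole larvae, fewer cells of a type and less RNA per cell cannot be told apart. All CPM values below were scaled with TMM factors, and where 6 values are listed they stand in the order control, C1, C2, C3, C4, C5.

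Per unit of transcript length, the 43 genes ranged widely in level. The highest mean RPKM (reads per kilobase and 1000000 reads, mean ± SD over the 6 libraries) was that of arm, the beta-catenin that carries the Wnt signal and also links cadherins, at 138 ± 22.2. Next came the EGFR ligand gene spi at 77.9 ± 13.4, Psn, the catalytic subunit of gamma-secretase, at 59.0 ± 9.32, and the BMP ligand gene gbb at 41.0 ± 4.19. The lowest were vn, the neuregulin-like EGFR ligand, at 1.81 ± 0.170, and aos, the secreted EGFR inhibitor, at 2.54 ± 0.162. The BMP ligand gene dpp stood at 4.03 ± 0.129 RPKM, Su(H), the DNA-binding effector of Notch, at 4.21 ± 1.28, and wg, the main Wnt ligand, at 4.92 ± 1.11. The genes lay on chromosome arms 2L (12 genes), 3R (9), 3L (8) and 2R (7), on the X (5) and on chromosome 4 (2). Their median span in the genome was 13588 bases, against 2532 for the 11272 measured protein-coding genes.

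The question asked of these genes was how narrowly their levels were held over the 6 libraries. They spread about as much as other genes of like expression, with few of the wide excursions seen elsewhere. For each gene the spread was the SD over libraries of log2(CPM + 0.5), and its percentile was taken among the 500 other genes nearest in mean expression. The median SD was 0.24 on that log2 scale, against 0.26 for the median of the neighbours and 0.34 for all measured genes. The median percentile was 45.4. Of the 43 genes, 25 spread less than the median of their neighbours, where 49.9% of all measured genes do. In the lowest 25% of their neighbours, where 25.0% of all genes lie, there were 7. That count depended on the scale: it was 13 with plain CPM and 15 with the deposited RPKM, with which 32 genes spread less than the median of their neighbours and the median percentile was 36.8. With TMM scaling, 3 genes, aop, grk and kuz, lay in the highest 25%, which holds 24.9% of all genes.

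The difference lay in the tail. The ratio of the highest to the lowest library stayed under 2-fold for 39 of the 43 genes, against 52.1% of all measured genes and a mean of 68.2% of the like-expressed neighbours. With plain CPM, and with the deposited RPKM, it was 36, and the share of all genes is not given for those scales. It stayed under 1.5-fold for 17 (39.5% of the 43), against 29.4% of all measured genes and 39.7% of the neighbours. Over the 4 libraries with almost no male germline RNA, that is without the control and C4, the median SD was 0.18 for the 43 genes and 0.21 for the 9988 genes then measured. The median percentile was then 46.2. Over these 4 libraries the range stayed under 2-fold for 40 of the 43 genes and for 74.8% of all genes then measured, so the contrast with all genes was smaller.

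**Figure D1:**
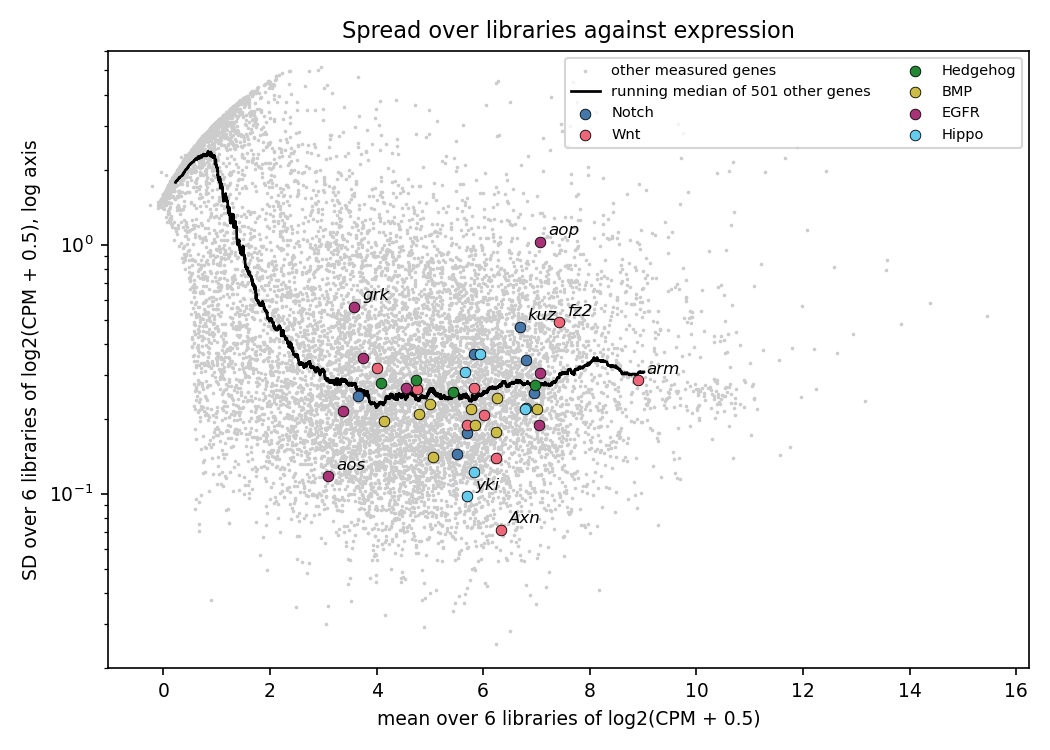
Each point is a gene, placed by its mean over 6 libraries of log2(CPM + 0.5) on the x axis and by the SD over the same libraries on the y axis, a log axis. Grey points are other measured genes, the line is their running median, and coloured points are the 43 signalling genes, which lie on both sides of the line, from Axn at an SD of 0.07 to aop at 1.03.

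By pathway, the BMP and Hippo genes had the lowest median percentiles. All 9 BMP genes spread less than the median of their neighbours (median percentile 38.0, range 20.8 to 45.6), and 4 of 6 Hippo genes did (median 36.4). For Notch it was 4 of 7 (median 48.8) and for Wnt 5 of 9 (median 47.2). None of the 4 Hedgehog genes did, but their percentiles stayed between 50.2 and 58.4. The EGFR genes were the most uneven, with 3 of 8 below the median and percentiles from 8.0 (aos) to 96.6 (aop). These counts describe these libraries and were not tested.

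The narrowest of all was Axn, the scaffold of the complex that destroys beta-catenin (chromosome 3R, 30022842 to 30035311). Its level was 78.6, 80.0, 74.3, 83.2, 85.8 and 78.4 CPM and the SD was 0.07, at percentile 2.8 among like-expressed genes. The Hippo effector gene yki, a coactivator that drives growth genes, stood at 48.4, 47.8, 50.7, 56.4, 55.5 and 51.1 CPM. Its highest library exceeded its lowest by 1.18-fold. The gene aos, at percentile 8.0, stood at 7.63, 8.10, 8.08, 8.73, 6.89 and 8.62 CPM. Its intervals against the control included 0 in C1, C2 and C4, so those differences were not resolved.

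A further 3 genes completed the 6 with the smallest SD. The kinase gene wts, which phosphorylates and restrains Yki, stood at 53.8, 59.8, 55.7, 58.8, 48.8 and 61.7 CPM. The Wnt co-receptor gene arr was lowest in the control, at 67.2, 86.3, 68.9, 80.2, 71.4 and 77.7 CPM. The type I BMP receptor gene sax stood at 33.9, 32.5, 29.0, 37.0, 36.2 and 30.0 CPM. In none of these 6 did the highest library exceed the lowest by more than 1.28-fold.

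**Figure D2:**
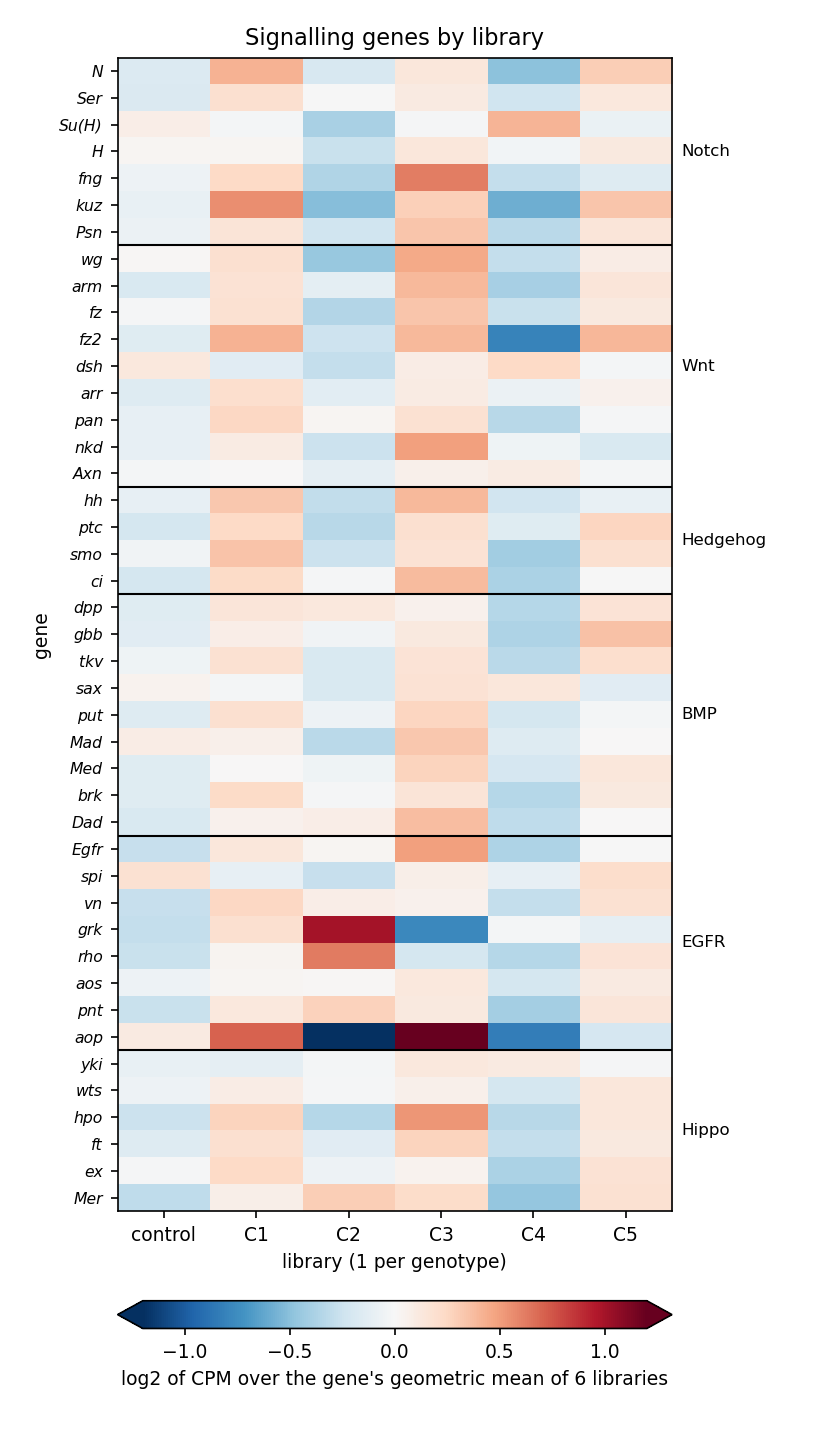
Rows are the 43 genes grouped by pathway, columns are the 6 libraries, and colour gives log2 of the CPM over the gene's geometric mean of the 6 libraries. Strong colours are few. Among them are aop in C1 (217 CPM), C2 (53.4), C3 (384) and C4 (74.5), grk in C2 (22.9) and C3 (6.70), and fz2 in C4 (98.5). The C3 column is mostly red and the C4 column mostly blue, the latter with TMM but not with plain CPM.

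At the other end, aop, grk, fz2, kuz, hpo and fng had the largest SDs. The first 4 were the 4 genes whose highest and lowest libraries differed by 2-fold or more. The Wnt receptor gene fz2 (3L, 19140975 to 19235373) stood at 155, 229, 145, 225, 98.5 and 226 CPM, high in C1, C3 and C5 and low in C4, a range of 2.33-fold. The protease gene kuz, which cleaves the ligand-bound Notch receptor (2L, 13550139 to 13639411), stood at 96.1, 150, 71.8, 125, 68.2 and 129 CPM. Its highest library, C1, exceeded its lowest, C4, by 2.20-fold. The Hippo kinase gene hpo stood at 50.6, 73.0, 47.8, 87.5, 48.0 and 66.5 CPM and fng, the glycosyltransferase that modifies Notch, at 53.8, 66.2, 43.7, 85.5, 45.9 and 50.4. Both were highest in C3 and lowest in C2. Just under the 2-fold line lay fng with a range of 1.96-fold and rho with 1.95-fold, and just over it kuz.

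The comparisons with the control asked which signalling genes differed in each newt transgene library. The size rule called for a ratio of 2-fold or more and an exact 95% Clopper-Pearson interval of that ratio that leaves out 1, and very few genes met it. In C1, C4 and C5 none of the 43 genes passed. In C2, grk was higher and aop lower. In C3, aop was higher.

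These counts stood below the rates over all measured genes. The share of all genes past the rule in either direction was 23.1% for C1, where 0 of the 43 passed. For C2, with 2 of 43, it was 29.0%, and for C3, with 1 of 43, it was 27.9%. For C4 and C5, with 0 of 43 each, it was 12.1% and 23.4%.

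Those rates include male germline genes. Among the like-expressed neighbours the mean share past the rule was smaller, at 6.15%, 12.0%, 11.1%, 4.84% and 6.88% for C1 to C5. With a fold of 1.5 in place of 2, C1 had 3 genes past the rule (N, kuz, aop), C2 had 4 (grk, rho, aop, Mer), C3 had 5 (fng, nkd, Egfr, aop, hpo), C4 had 2 (fz2, aop) and C5 had 0. At that fold 34.3%, 40.4%, 41.0%, 29.8% and 33.6% of all measured genes passed in C1 to C5, and 17.9%, 24.3%, 25.6%, 14.3% and 17.3% of the like-expressed neighbours. In 4 of the 5 comparisons aop was among the genes past a fold of 1.5.

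**Figure D3:**
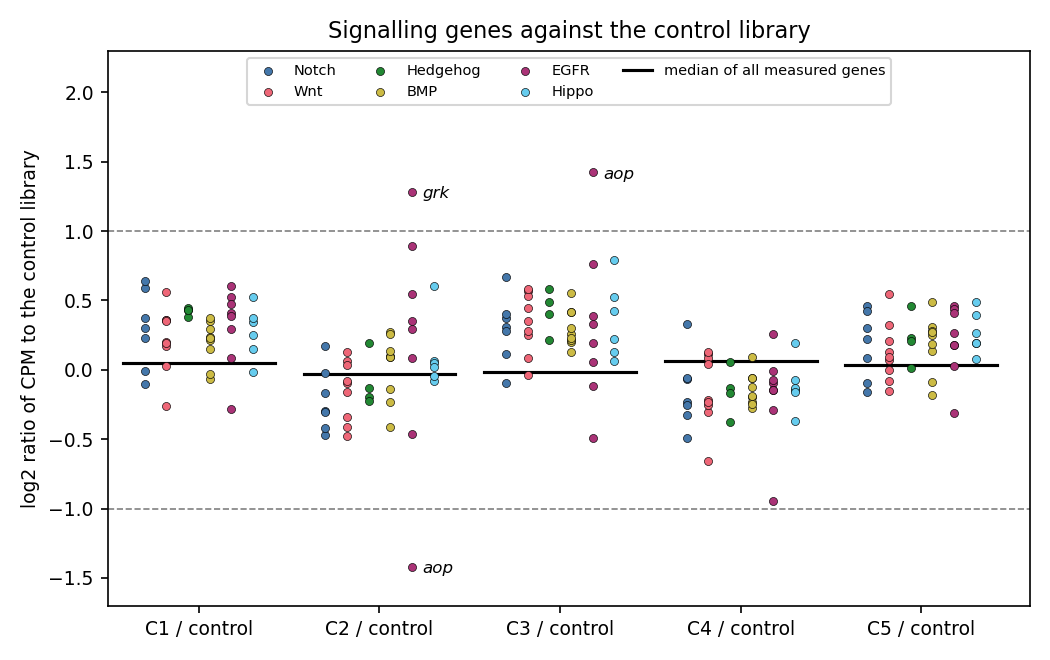
Points are the 43 genes by pathway, with the log2 ratio of CPM to the control library on the y axis and the 5 newt transgene libraries on the x axis; short lines mark the median of all measured genes and dashed lines a 2-fold difference. Only grk in C2 (1.28) and aop in C2 (-1.42) and C3 (1.42) lie past the dashed lines.

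Below the 2-fold line the 43 genes were shifted together in some libraries. Over the 43, the log2 ratio to the control had medians of 0.30, -0.03, 0.31, -0.14 and 0.21 for C1 to C5, against 0.05, -0.03, -0.01, 0.06 and 0.03 over all measured genes. In C3, 39 of the 43 ratios were above 1, and in C4, 9 were. Over all 11599 measured genes, 5677 ratios were above 1 in C3 and 6446 in C4. For 7, 6, 3, 6 and 4 of the 43 in C1 to C5 the counting interval of the log2 ratio included 0, so their side of the control was not resolved. Their summed level was 2921, 3621, 2797, 4000, 2521 and 3409 CPM, highest in C3 and lowest in C4, and with plain CPM it was 3195, 3458, 2490, 3994, 3002 and 3083, lowest in C2.

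Counted gene by gene, C3 was the highest of the 6 libraries for 20 of the 43, against 21.3% of all measured genes and a mean of 28.0% of the neighbours. C1 was the highest for 10 (10.8% of all genes and 14.4% of the neighbours). C4 was the highest for 3 (31.7% and 18.7%) and the control for 0 (4.22% and 3.41%). C4 was the lowest for 25, against 26.9% of all genes and 36.6% of the neighbours, and C2 for 15, against 18.3% and 19.8%. The place of C3 held under other scalings, with 19 genes highest there with DESeq2 size factors and 22 with plain CPM. The places of C4 and C2 did not: with plain CPM, C4 was lowest for 4 genes and C2 for 33. Relative to TMM, plain CPM moved the log2 ratios of each library together, by -0.20, -0.30, -0.13, 0.12 and -0.27 for C1 to C5. The medians of the 43 genes were then 0.10, -0.32, 0.17, -0.02 and -0.07, so that the sign for C5 turned, and those of all genes -0.15, -0.32, -0.15, 0.18 and -0.24. Statements below on the highest or lowest library of a gene and on small differences from the control rest on TMM scaling.

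The summed level of 17 imaginal disc markers followed the same outer order, at 564, 644, 533, 752, 476 and 577 CPM, highest in C3 and lowest in C4, with none of the 17 at 0 in any library. Of these markers bab2 was past the size rule in C3 (79.4 CPM in the control, 176 in C3) and eyg in C4 (17.6 and 8.16). The summed level of 11 neuron and glia markers was 342, 405, 435, 350, 356 and 396 CPM, and Syt1 alone held 76.1, 146, 176, 109, 79.5 and 152 of it. In this list Syt1 and para were past the size rule as higher in C2, and nrv2 as lower in C1 and C2.

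Markers of other tissues also differed between libraries. The 8 salivary gland markers summed to 1225 CPM in C3 and to between 21203 and 48628 in the other 5 libraries, with none at 0. Among them Eig71Ea reached 336 CPM in C3 and 391 in C4; the other 4 libraries held 4.06 or less. The 6 trachea markers had median log2 ratios to the control of 0.36, 0.01, 0.59, -0.15 and 0.24 for C1 to C5. They summed to 378, 501, 470, 684, 597 and 455 CPM. Of these markers, verm was past the size rule as higher in C3 and serp in C4. The male germline markers summed to 1250 CPM in the control and 2650 in C4, but to 14.6 or less in C1, C2, C3 and C5. Those 4 libraries thus differed from the control in male germline RNA as well. The part of male germline, disc, nervous system, salivary gland or tracheal RNA in the signalling gene levels was not tested.

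By pathway, the Notch receptor gene N (X, 3134870 to 3172221) stood at 99.4, 149, 97.6, 123, 79.2 and 137 CPM, highest in C1 and lowest in C4. Its ligand gene Ser stood at 45.1, 58.5, 50.7, 54.9, 43.2 and 55.8 CPM, with C1 and C4 again at the ends. Su(H) went the other way in C4, at 12.7, 11.9, 9.20, 12.0, 16.0 and 11.4 CPM. It was the only Notch gene of the 7 above the control in C4, with a log2 ratio of 0.33, and the lowest of the 7 in the other 4 comparisons. The Su(H) partner gene H, a repressor, ranged from 37.4 CPM (C2) to 49.5 (C3), and Psn from 98.0 (C4) to 155 (C3). Notch pathway output was read from 13 target genes, mostly of the Enhancer of split complex, and none of them passed the size rule in any comparison. Per comparison, the rule passed 12.1% to 29.0% of all measured genes and 4.84% to 12.0% of the neighbours of the 43. The rate among genes expressed like the 13 targets was not computed.

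Most of the Notch targets were above the control library. Of the 13, 11, 11, 12, 11 and 12 had a ratio above 1 in C1 to C5, all against the same control. Of all 11599 measured genes, 6282, 5562, 5677, 6446 and 6176 did. The median log2 ratios of the 13 targets were 0.35, 0.30, 0.33, 0.27 and 0.22. The basic helix-loop-helix repressor gene E(spl)m8-HLH stood at 9.65, 14.6, 16.4, 11.6, 15.6 and 15.5 CPM, lowest in the control. The Bearded family gene E(spl)malpha-BFM stood at 35.6, 54.5, 43.8, 59.2, 55.1 and 54.3, also lowest in the control. The medians in C2 and C5 are about as large as the shift of all ratios with plain CPM given above.

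The Wnt ligand gene wg (2L, 7307159 to 7316265) stood at 15.8, 17.8, 11.4, 21.5, 12.8 and 16.6 CPM, highest in C3 and lowest in C2. The transcription factor gene pan, the fly TCF, stood at 60.0, 76.6, 65.5, 72.9, 51.0 and 63.9 CPM, highest in C1. The gene arm ranged from 363 CPM (C4) to 626 (C3). The receptor gene fz ranged from 20.8 (C2) to 33.5 (C3) and the inhibitor gene nkd, itself induced by Wnt signalling, from 46.9 (C2) to 78.6 (C3). Unlike these, dsh, the cytoplasmic transducer, was highest in C4 at 60.6 CPM and lowest in C2 at 42.1. The control library held 55.9 CPM of it.

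The 4 Hedgehog genes lay on the same side of the control in 3 libraries. All 4 were above the control in C1, with log2 ratios from 0.38 (smo) to 0.44 (ptc), all 4 in C3 and all 4 in C5, and 1 of 4 in each of C2 and C4. Of all 11599 measured genes, 6282, 5562, 5677, 6446 and 6176 were above the control in C1 to C5. For hh in C5 the log2 ratio was 0.01 with an interval of -0.10 to 0.13. The ligand gene hh stood at 15.3, 20.6, 13.3, 21.4, 14.0 and 15.4 CPM. Its receptor gene ptc, which is also a target of the pathway, stood at 36.9, 50.2, 33.8, 48.8, 38.5 and 50.9 CPM. The zinc finger effector gene ci (chromosome 4, 47710 to 57041) stood at 109, 147, 124, 163, 96.5 and 125 CPM. Of these, hh and ci were highest in C3, and ptc in C5 by a small margin. The transducer gene smo ranged from 19.7 CPM (C4) to 33.4 (C1), and 14.6% of its exonic bases overlap CG17078 and 12.4% CG11601 on the opposite strand.

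The BMP ligand gene dpp (2L, 2428372 to 2459823) stood at 15.5, 19.0, 18.7, 17.8, 13.5 and 19.2 CPM, low in C4 and the control and nearly level in the other 4 libraries. The type I receptor gene tkv stood at 124, 146, 113, 144, 103 and 147 CPM. The effector gene Mad, a receptor-activated Smad, stood at 57.7, 56.5, 43.4, 67.8, 48.6 and 54.3 CPM, highest in C3 and lowest in C2. Its partner Med ranged from 65.5 CPM (C4) to 91.2 (C3), and the type II receptor gene put from 49.1 (C4) to 68.4 (C3). Of the Med exonic bases, 9.66% overlap CycG on the opposite strand, a more abundant gene at 446 CPM (C4) to 680 (C2). The repressor gene brk and the inhibitory Smad gene Dad, which respond to the pathway in opposite ways, were both lowest in C4, brk at 21.4 CPM against 31.8 in C1 and Dad at 25.5 against 40.8 in C3. The ligand gene gbb was highest in C5, at 97.2 CPM, with 59.2 in C4. All 9 BMP genes were above the control in C3, with a median log2 ratio of 0.26. Of all 11599 measured genes, 5677 were above it there.

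The Hippo genes showed the same tilt. All 6 were above the control in C3 and all 6 in C5, with medians of 0.32 and 0.23, and yki was the only gene of the 6 above the control in C4, with a log2 ratio of 0.20. Of all 11599 measured genes, 5677, 6446 and 6176 were above the control in C3, C4 and C5. The atypical cadherin gene ft stood at 99.3, 126, 101, 133, 90.7 and 120 CPM. Its downstream regulator gene ex ranged from 84.0 CPM (C4) to 129 (C1). Of the ex exonic bases, 6.71% overlap crq on the opposite strand, which likewise ranged from 82.6 CPM (C4) to 164 (C1). Mer, the fly merlin, ranged from 36.5 (C4) to 61.7 (C2), the only Hippo gene highest in C2.

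Within EGFR signalling, the receptor gene Egfr (2R, 21522420 to 21559977) stood at 110, 146, 135, 187, 103 and 132 CPM. It was highest in C3, with a log2 ratio to the control of 0.77. The ligand gene spi stood at 150, 123, 109, 138, 123 and 152 CPM and was below the control in C1, C2, C3 and C4. The activator gene pnt, an ETS factor that turns on EGFR targets, stood at 19.0, 24.9, 27.7, 24.8, 17.2 and 25.2 CPM, highest in C2. The gene rho, which encodes the protease that releases active Spitz, stood at 10.7, 13.2, 19.9, 11.1, 10.2 and 14.5 CPM, also highest in C2. The ligand gene vn ranged from 8.10 CPM (C4) to 11.7 (C1).

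The gene with by far the widest range was aop (2L, 2156484 to 2178754), also called yan, the ETS repressor that competes with Pointed and is removed when EGFR signals. It stood at 143, 217, 53.4, 384, 74.5 and 115 CPM. C3 held the most and C2 the least, a range of 7.19-fold. Against the control the ratio was 2.68 in C3 (log2 1.42, interval 1.39 to 1.45) and 0.373 in C2 (log2 -1.42, interval -1.48 to -1.37). In C4 the log2 ratio was -0.94 and in C1 0.60, with intervals of -0.98 to -0.90 and 0.57 to 0.63. Both calls held with DESeq2 size factors, plain CPM and the deposited RPKM. With TMM scaling, its antagonist pnt was highest in C2, at 27.7 CPM (log2 ratio 0.54), where aop was lowest. In C3, where aop was highest, pnt was at 24.8 CPM, within 1 CPM of its level in C1 and C5.

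Most of the aop difference lay in transcripts from the upstream of its 2 start sites. Isoforms RB, RC and RE start at position 2178754 of 2L and isoforms RA and RD at 2161527 on the same, minus strand. The upstream start gave 108, 187, 28.0, 311, 54.9 and 84.5 CPM by the authors' transcript estimates, and the downstream start 34.7, 29.8, 25.4, 72.5, 19.6 and 30.9. The share of the upstream start was thus 75.8%, 86.3%, 52.4%, 81.1%, 73.7% and 73.2%, lowest in C2. The gene CG15382 overlaps 5.63% of the aop exonic bases on the opposite strand, but at no more than 3.43 CPM.

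**Figure D4:**
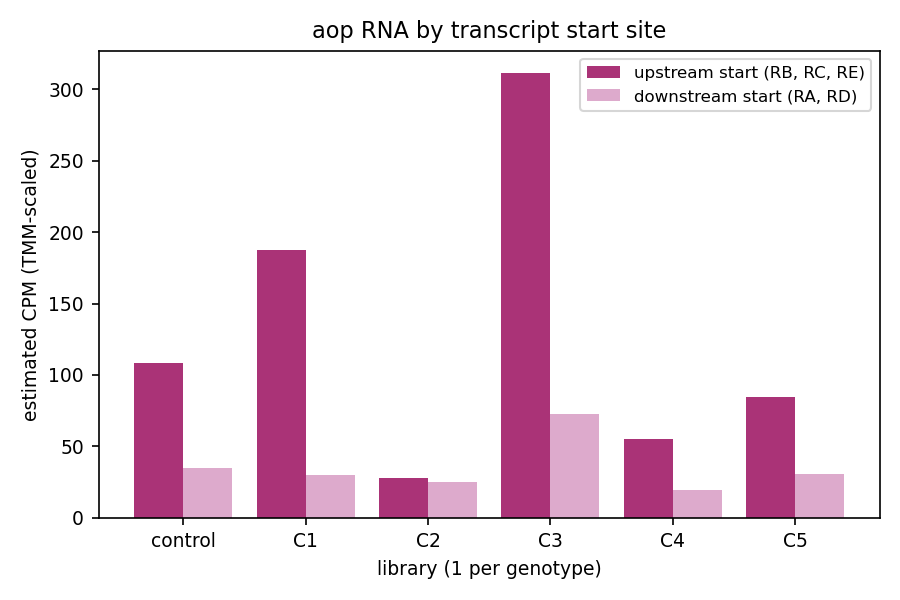
Bars give the estimated CPM of aop transcripts from the upstream start (dark) and the downstream start (light) in each of the 6 libraries, 1 per genotype. The upstream start ranges from 28.0 CPM in C2 to 311 in C3, and in C2 both starts are nearly equal.

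The other gene past 2-fold was grk (2L, 8431086 to 8433598), the EGFR ligand best known from the oocyte, where it sets the axes of the egg. It stood at 9.40, 13.1, 22.9, 6.70, 11.2 and 10.6 CPM, highest in C2 and lowest in C3. The C2 ratio to the control was 2.43 (log2 1.28, interval 1.16 to 1.40). With plain CPM or with summed deposited RPKM the C2 ratio was under 2-fold (log2 0.99 and 0.97). Of its 1718 exonic bases, 212 (12.3%) overlap Akap200 on the opposite strand, a much more abundant gene at 923, 1286, 558, 1465, 761 and 1078 CPM, which was lowest in C2 and highest in C3, the reverse of grk. The strand setting of the counting is not given in the sources used here, so reads of this overlap could not be assigned with certainty.

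Transcript choice within the genes was read from the annotated start and end sites. Of 16 signalling genes with at least 2 separate start sites, the share of the leading start moved by over 20 percentage points between libraries in 4 (Axn, tkv, Dad and aop), against 34.8% of 2731 genes. For Dad the share was 58.2%, 76.1%, 44.1%, 74.0%, 58.0% and 54.0%. For Axn, the most even gene in total level, the leading start took 82.8%, 83.2%, 57.9%, 75.9%, 78.8% and 77.2%. In all 4 genes C2 had the lowest share of the leading start, which for tkv was 47.3% in C2 and 69.5% in C1. They were the only genes of the 16 with C2 lowest, and C2 was lowest for 630 of the 2731 genes. The rate among all genes that moved by over 20 points is not given here.

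End sites moved more. Of 16 genes with at least 2 separate ends, the share of the most downstream end, the annotated end furthest from the start, moved by over 20 points in 8 (N, H, kuz, Axn, Med, vn, pnt and hpo), against 35.4% of 2560 genes. For N it was 36.0%, 21.8%, 67.5%, 64.8%, 44.7% and 32.4%, high in C2 and C3. The N transcript with the downstream end thus stood at 35.8, 32.6, 65.9, 79.6, 35.4 and 44.3 CPM, and the transcript with the upstream end at 63.6, 117, 31.7, 43.3, 43.8 and 92.7. For H the downstream end took 38.2%, 44.5%, 56.3%, 84.4%, 34.3% and 34.3%. For kuz it took 34.6%, 38.2%, 72.6%, 76.9%, 52.2% and 31.1%, and for hpo 39.3%, 42.0%, 73.1%, 67.9%, 49.8% and 36.4%. N, H, kuz and hpo shared high values in C2 and C3. In contrast, vn was highest in C5, at 27.6%, and lowest in C3, at 6.54%, and pnt was highest in C3, at 93.3%, but lowest in C2, at 72.8%.

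This pattern was not particular to the signalling genes. Over all 2560 genes the median share of the most downstream end was 25.4%, 27.5%, 33.7%, 38.0%, 27.5% and 24.8%. It was highest in C3 for 48.8% of those genes and in C2 for 26.6%, and for 10 and 4 of the 16 signalling genes. Transcript estimates divide shared reads among isoforms, so these shares carry an error that the deposited values do not give.

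**Figure D5:**
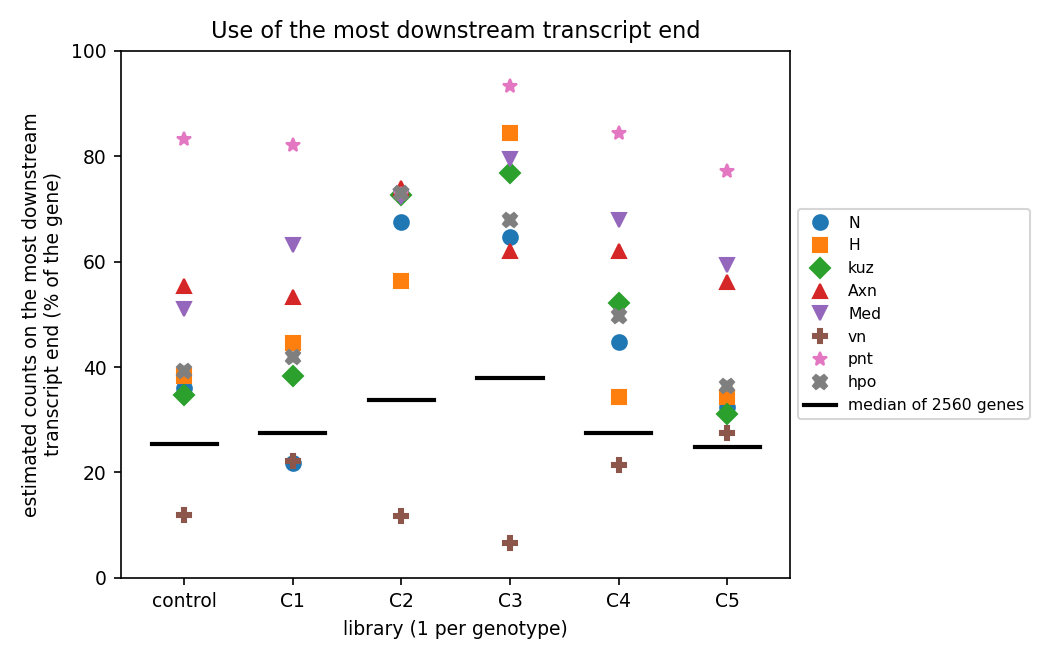
The y axis gives the percentage of a gene's estimated counts on its most downstream transcript end, for the 8 signalling genes whose share moved by over 20 points, in each of the 6 libraries on the x axis; short lines are the median of 2560 genes. In N, H, kuz, Med and hpo the share was higher in C2 and C3 than in the other 4 libraries, and the all-gene median was highest there too, at 33.7% and 38.0%.

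Further genes of the same pathways, listed by function, were set beside the same shares, namely 23.1%, 29.0%, 27.9%, 12.1% and 23.4% of all measured genes past the size rule in C1 to C5, and 4.84% to 12.0% of the neighbours of the 43. None of 19 other Notch genes and none of 15 other Hedgehog genes passed the size rule in any comparison. Among 21 other Wnt genes, slmb, an F-box gene whose product marks beta-catenin for destruction, was lower in C2 (188 CPM in the control, 93.05 in C2) and dlp, a glypican that binds Wingless, higher in C3 (47.3 and 104). Among 18 other BMP and activin genes, the protease gene tok was lower in C2 (426 and 161). Among 23 other Hippo genes, the apical polarity gene crb was lower in C2 and C4 (173 CPM in the control, 81.3 and 73.8), and its partner sdt higher in C3 (57.1 and 129).

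Among 21 other EGFR and Ras genes, 2 passed. The phosphatase gene csw, which relays receptor tyrosine kinase signals, was higher in C3 and C4 (61.2 CPM in the control, 148 and 164). The gene edl, whose product binds and inhibits Yan, stood at 19.0, 25.1, 11.7, 54.6, 20.1 and 21.0 CPM and was past the rule in C3. Like aop, edl was highest in C3 and lowest in C2. No gene of any of these lists passed in C1 or C5. The listed genes Dl, tsg, d and ban were not analysed here, and wntD and scw were below the measured level.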

How the data were processed

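Total RNA of whole larvae was sequenced from TruSeq stranded, ribosomal RNA-depleted libraries, per the labels' protocols. Tools given without version or role are TopHat, Partek and bcl2fastq, with the build dm6, per the submitters' processing notes. The authors deposited, for each library, expected counts (estimated reads per RefSeq transcript, shared among isoforms) and RPKM values. Of 34966 transcripts, 33027 matched 16196 genes of the Release 6 annotation, and counts were summed per gene and rounded. The unmatched transcripts held at most 0.136% of the counts.

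Counts were scaled with TMM (edgeR 4.0.16, R 4.3.3). A library with fewer than 3 counts took a floor of 3 counts. No test was possible with 1 library per genotype, so no p-value is given. Scripts were tested on simulated data. Transcript ends were assigned by matching the lengths behind the deposited RPKM, within 0.5 bases, to Ensembl 115 transcripts, and sites within 100 bases were grouped; the end sites were added after seeing the data. No sequences were used. Values in all libraries were given for genes past the size rule, the 6 smallest and 6 largest SDs, and a ligand, receptor and effector per pathway; some others are named by their range. Members and lists were chosen with earlier results of these data known.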

Additional observations from a re-analysis of the deposited data

How the results depend on the processing

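When each library was left out in turn, the number of genes below the median of their neighbours was between 24 and 28, the number in the lowest 25% between 5 and 9, the number under 2-fold 39 or 40, and the median percentile between 42.4 and 48.0. The number in the lowest 25% was 13 with plain CPM and 15 with the deposited RPKM, and the number under 2-fold 36 with either. In C2, 1 gene (aop) was past the size rule with plain CPM, and 1 with the deposited RPKM, since grk dropped out. A fold of 1.5 gave 3, 4, 5, 2 and 0 genes for C1 to C5. C4 was lowest for 4 genes and C2 for 33 with plain CPM, and C4 highest for 5 with DESeq2 size factors (1.42.0) and for 7 with plain CPM. The scaling for library order, the groupings of sites within 50 or 300 bases and leaving out aop and grk were chosen after seeing the data. The other settings, namely no filter on low counts, a minimum of 5 CPM, pseudocounts of 0.1 and 2, 100 neighbours and protein-coding neighbours, changed none of these counts by more than 1.5 times. The cause of the changes was not tested. No paired analysis was possible because each genotype had 1 library. The description of promoter motifs was not run.

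No library had a replicate, so the effect of a genotype and the state of its library cannot be told apart.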
